A study of Mus musculus with 24 samples.

Results

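The genes described here make, sense and move cholesterol. They were chosen by symbol from a list of 29 genes of the mevalonate pathway, sterol synthesis, control by SREBP2, and sterol uptake, storage and efflux. Of the 29, 28 had a row among the 49452 genes of the expression table, and *Mvd* was not analysed here. All 28 had an FPKM (fragments scaled to transcript length and to the number of mapped fragments) of at least 1 in enough libraries to be tested in every comparison.

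The study silenced the maternally expressed long noncoding RNA *H19* in primary adipocyte precursors and asked how brown and white fat cells then differentiate. Stromal-vascular cells of male C57BL/6 mice, 6 to 8 weeks old, came from interscapular brown adipose tissue (BAT) or perigonadal visceral white adipose tissue (vWAT). They were nucleofected with an siRNA against *H19* (siH19) or a non-targeting siRNA (siCtrl, which the sample titles write as siKO). Harvest was at d0, where the study calls the cells progenitors, or 3 days into differentiation (d3). Each of the 8 groups held 3 libraries, 24 in all, and no genotype differed between groups. The labels list insulin, dexamethasone, rosiglitazone and IBMX in the induction medium for both depots and indomethacin (written Indomethazine) and triiodothyronine for BAT, the study's methods can also be read as giving BAT cells only the last 2, and the medium that followed held rosiglitazone for vWAT and triiodothyronine for BAT. The depots therefore differed in medium as well as in origin, and in library depth, and these cannot be told apart. The labels also number the libraries of each depot in a series of their own, which likewise cannot be told apart from depot. The siRNA was 1 oligonucleotide, BAT of several animals may have been pooled, and the labels do not say whether replicates came from separate animals, so that p-values measure only the spread between these libraries.

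Cells build cholesterol from acetyl-CoA. The mevalonate pathway makes isoprenoid units, farnesyl diphosphate leads either to squalene or to non-sterol isoprenoids such as ubiquinone and dolichol, and squalene is then cyclised to lanosterol and trimmed to cholesterol in a series of endoplasmic reticulum enzymes. The transcription factor SREBP2 (*Srebf2*) switches on the genes of this pathway when sterols are scarce: SCAP escorts it to the Golgi for cleavage, and the INSIG proteins hold SCAP back when sterols are plentiful. Its sites are known as sterol regulatory elements, which commonly lie near CCAAT boxes bound by NF-Y and GC boxes bound by Sp1. Excess cholesterol is esterified by SOAT1 or exported by ABCA1 and ABCG1, whose genes are targets of the oxysterol-sensing liver X receptors. Adipocytes hold a large pool of free cholesterol in and around the lipid droplet.

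The start regions of the members were read from RefSeq, build GRCm38.p6, as 250 bases before and 50 after each annotated start, and 22 of the 28 members had such a window. The 9-letter form of a sterol element, TCACNCCAC, was found on either strand in 1 of these 22 genes, *Hmgcs1* (4.55%, against 1.44% of all 27025 genes with a window). Its 8-letter core CACNCCAC, which the longer form contains, lay in *Acat2*, *Hmgcs1* and *Insig1* (13.6% against 7.12%). These 3 genes are among the members with the largest rise from d0 to d3 in BAT siCtrl cells, described below. *Dhcr7*, whose windows hold neither form, rose most there (log2 3.996), and *Pmvk* (2.79), also without either, rose more than *Hmgcs1* (2.71). Other forms of a sterol element, and sequence outside the windows, were not searched, so that a gene without a match may still have an element. A CCAAT box was present in 19 of 22 (86.4% against 41.1%) and the GC box GGGCGG in 20 of 22 (90.9% against 38.2%). The shares over all genes include genes with little or no expression here, while all members were expressed. Shares over expressed genes alone were not computed. The stretches that hold these letter matches are printed here with the match in capitals and 10 bases on either side, 5′ to 3′ on the strand of the gene. They lie at chr13:119690204-119690232 (*Hmgcs1*, plus strand), chr17:12960889-12960916 and chr17:12960761-12960788 (*Acat2*, minus strand), and chr5:28071393-28071420 (*Insig1*, plus strand). The first base of each match is at -137, -181, -53 and -9 relative to the annotated start, in this order. The last 2 hold the match on the opposite strand, so that the capitals read as its reverse complement.
Hmgcs1: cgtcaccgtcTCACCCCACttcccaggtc
Acat2, first: ggatcctccaCACCCCACcctaacccga
Acat2, second: gtgaggaggcGTGGCGTGgaggccatag
Insig1: gtgtagtgtcGTGGCGTGtaccttccat

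None of the 4 shorter stretches below holds a sterol element of these letters, and they are shown because their genes, *Dhcr7*, *Cyp51*, *Lss* and *Pmvk*, are the members with the most negative siH19 values in BAT cells at d3. Each has a CCAAT box in capitals (ATTGG where it lies on the opposite strand), at chr7:143830119-143830143, chr5:4104712-4104736, chr10:76531533-76531557 and chr3:89454395-89454419, with *Cyp51* on the minus strand and the others on the plus strand. Such a match is a description of letters in a window and says nothing of binding in these cells.
Dhcr7: actgccttcaCCAATcacaggacgc
Cyp51: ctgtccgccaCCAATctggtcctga
Lss: tgatgctctgATTGGccgagctcgc
Pmvk: ctcaggttggCCAATtcacagcatc

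The knockdown was present in every siH19 library, with log2 fold changes of *H19* between -4.63 and -2.56. *H19* stood at 108, 160.4 and 122 FPKM in the 3 BAT siCtrl libraries at d0 and at 2.82, 5.20 and 5.05 with siH19, and at d3 the values were 99.7, 86.3 and 83.2 against 12.04, 12.2 and 16.9. In vWAT cells, where *H19* was lower throughout, it read 12.3, 11.3 and 11.6 against 1.23, 0.630 and 1.76 at d0 and 8.67, 8.19 and 8.90 against 0.327, 0.290 and 0.966 at d3. The 7 adipocyte markers rose together from d0 to d3 in both depots, and their summed level went from between 3135 and 3408 to between 37580 and 39280 FPKM in BAT siCtrl cells and from between 4087 and 4095 to between 19220 and 20210 FPKM in vWAT siCtrl cells. Of the brown adipocyte markers, *Ucp1* was listed at 0 in all vWAT libraries. Summed FPKM per library lay between 710794 and 841456, 12311 to 13125 genes reached 1 FPKM, and no library stood apart from its replicates (Pearson r across genes 0.988 to 0.991). The sum was higher at d3 than at d0, at 800852 to 833470 against 710794 to 723104 in BAT libraries. In vWAT libraries it was 816662 to 841456 against 733170 to 772251. The part of this in the changes between days was not tested. The table holds no read counts. Relative depth, read from the steps between low values, was 0.826 to 0.983 in BAT and 1.017 to 1.165 in vWAT libraries.

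From d0 to d3, cells of both depots raised most of the pathway, but unevenly from step to step. A gene is said to rise or fall where limma gave an adjusted p below 0.05 together with a 1.3-fold or larger change. Fold changes were fitted after adding 1 to each FPKM and taking log2, so that those of low genes come out too small. In BAT siCtrl cells 17 of the 28 members rose and 2 fell, with a median log2 fold change of 0.74 against -0.099 for all genes tested, of which 29.9% rose and 35.3% fell. In vWAT siCtrl cells 16 rose and 4 fell (median 0.92 against 0.011; 26.3% and 23.9% of all genes). The 18 enzymes of the mevalonate and sterol pathways accounted for 13 of the rises in each depot, and none of them fell. In bulk RNA, a change in the share of cells of a type and a change in RNA per cell cannot be told apart.

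**Figure D1:**
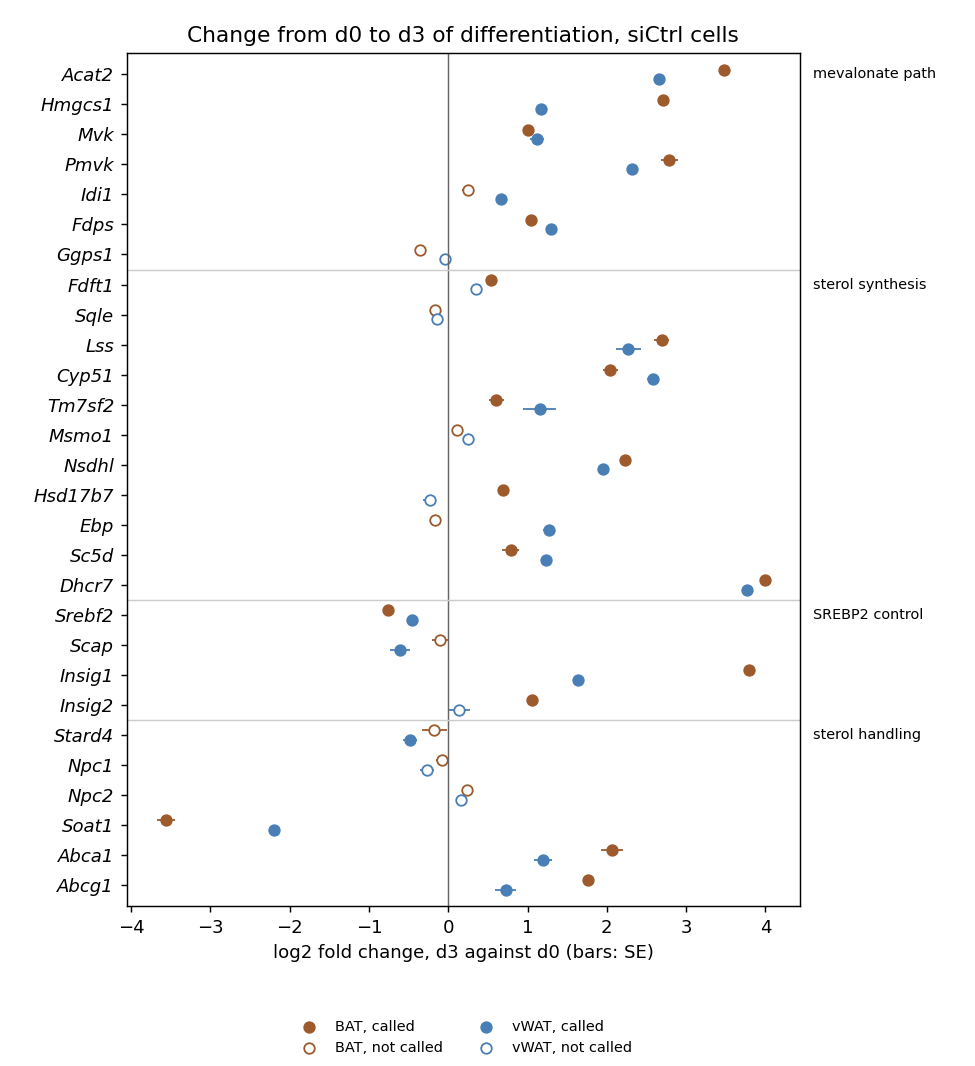
Log2 fold change from d0 to d3 in siCtrl cells (horizontal axis, bars are SE, 3 libraries against 3) for the 28 members in pathway order, brown for BAT and blue for vWAT, filled where called. *Dhcr7* lies furthest right in both depots and *Soat1* furthest left, *Insig1* and *Hmgcs1* lie further right in BAT than in vWAT, and *Sqle* and *Msmo1* lie near 0.

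Among the enzymes of the mevalonate pathway, *Acat2*, which makes acetoacetyl-CoA in the cytosol, changed most. It stood at 6.47, 6.51 and 6.24 FPKM in BAT siCtrl cells at d0 and at 79.9, 82.8 and 82.3 at d3, a log2 fold change of 3.48 ± 0.046 (SE; adjusted p = 1.7e-08, limma). In vWAT siCtrl cells *Acat2* went from 7.91, 8.30 and 8.30 to 58.05, 56.7 and 56.6 FPKM (2.66 ± 0.047). All d3 libraries were above all d0 libraries in both depots. *Hmgcs1*, whose product condenses acetoacetyl-CoA to HMG-CoA, went from 45.96, 47.9 and 49.2 to 311, 333 and 311 FPKM in BAT cells, and from 72.2, 68.8 and 70.2 to 159, 159 and 162 in vWAT cells. It was thus lower in BAT than in vWAT libraries at d0 and higher at d3, with no overlap at either day, and rose 6.67-fold against 2.27-fold. An annotated antisense gene shares 12.1% of its exonic bases, and the use of strand in the authors' quantification is not given in the sources used here. The phosphomevalonate kinase gene *Pmvk* rose from 14.1, 10.1 and 11.2 to 85.7, 85.2 and 88.9 FPKM in BAT cells and from 15.4, 17.5 and 16.9 to 91.8, 87 and 82.2 in vWAT cells, so that the depots differed at d0 and overlapped at d3.

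Mevalonate kinase (*Mvk*) and farnesyl diphosphate synthase (*Fdps*) rose, with log2 fold changes of 1.00 ± 0.060 and 1.04 ± 0.049 in BAT and 1.12 ± 0.087 and 1.29 ± 0.049 in vWAT siCtrl cells. *Fdps* shares 26.7% of its exonic bases with another annotated gene on the same strand, and reads cannot be assigned between them with certainty. The isomerase gene *Idi1* was called in vWAT (0.67 ± 0.056) and not in BAT (0.24 ± 0.064). *Ggps1*, which makes geranylgeranyl diphosphate for protein prenylation and sits on the non-sterol branch, had log2 fold changes of -0.36 ± 0.066 in BAT and -0.041 ± 0.055 in vWAT and was not called in either.

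The sterol enzymes held both the steepest rises and the flattest profiles. *Dhcr7*, the reductase that turns 7-dehydrocholesterol into cholesterol, went from 16.9, 18.3 and 17.4 to 285, 307 and 291 FPKM in BAT siCtrl cells and from 14.2, 12.2 and 12.9 to 196, 189 and 189.8 in vWAT siCtrl cells. This was a 16.8-fold and a 14.6-fold rise (log2 3.996 ± 0.048, adjusted p = 1.4e-08, and 3.77 ± 0.059, adjusted p = 1.1e-07, limma). *Lss*, which cyclises squalene epoxide to lanosterol, rose from 15.9, 15.5 and 12.3 to 101, 99.8 and 95.7 FPKM in BAT and from 21.1, 26.8 and 16.3 to 103, 106 and 106 in vWAT cells. *Cyp51*, the lanosterol demethylase, rose from 50.5, 57.9 and 58.9 to 216, 263 and 221 FPKM in BAT cells and from 60.9, 64.2 and 73.9 to 418, 392 and 394 in vWAT cells. All d3 libraries of *Lss* and *Cyp51* lay above the d0 libraries, and at d3 *Cyp51* was higher in every vWAT library than in any BAT library. *Nsdhl*, a sterol dehydrogenase gene, rose from 14.1, 12.4 and 13.7 to 65.3, 68.1 and 66.8 FPKM in BAT and from 15.2, 13.9 and 14.1 to 59.2, 57.8 and 58.7 in vWAT cells.

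*Sqle*, which epoxidises squalene ahead of *Lss* and is a known control point of the pathway, hardly moved. It stood at 24.2, 24.4 and 24.99 FPKM at d0 and 21.3, 22.1 and 22.1 at d3 in BAT cells, and at 32.3, 31.8 and 31.4 and 29.4, 27.7 and 29.5 in vWAT cells. These are log2 changes of -0.16 ± 0.046 (adjusted p = 0.016) and -0.14 ± 0.047 (adjusted p = 0.035, limma), below the 1.3-fold minimum although the 3 libraries of one day did not overlap those of the other in either depot. The sterol oxidase gene *Msmo1* changed by 0.11 ± 0.060 in BAT and 0.25 ± 0.051 in vWAT cells and was called in neither. Squalene synthase, *Fdft1*, went from 12.5, 12.8 and 13.6 to 18.98, 19.03 and 19.6 FPKM in BAT and from 23.5, 22.9 and 23.8 to 30.8, 29.8 and 29.6 in vWAT cells, and was called in BAT alone. *Ctsb*, on the opposite strand, shares 18.3% of the exonic bases of *Fdft1*.

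A further group went different ways in the depots or rose moderately. *Ebp*, the sterol isomerase, stood at 43.6, 41.3 and 38.3 FPKM at d0 and 34.3, 37.5 and 37.2 at d3 in BAT cells, and at 36.7, 31.9 and 35.6 and 88.6, 90.2 and 77.1 in vWAT cells, where it rose 2.46-fold. *Sc5d*, the lathosterol desaturase, rose from 21.1, 21.8 and 28.3 to 41.4, 40.9 and 41.9 FPKM in BAT and from 26.3, 28.3 and 28.5 to 68.03, 68.5 and 63.5 in vWAT cells. The ketoreductase gene *Hsd17b7* was called in BAT (0.69 ± 0.066) and not in vWAT cells (-0.23 ± 0.079). For *Tm7sf2*, a sterol reductase gene that shares 12.1% of its exonic bases with *Vps51*, the values were 5.04, 5.89 and 6.17 and 8.43, 9.62 and 9.57 FPKM in BAT and 10.8, 8.72 and 6.95 and 21.9, 25.1 and 15.7 in vWAT cells. It rose in both, and in vWAT siCtrl cells at d3 it had the widest spread relative to its mean of all members.

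**Figure D2:**
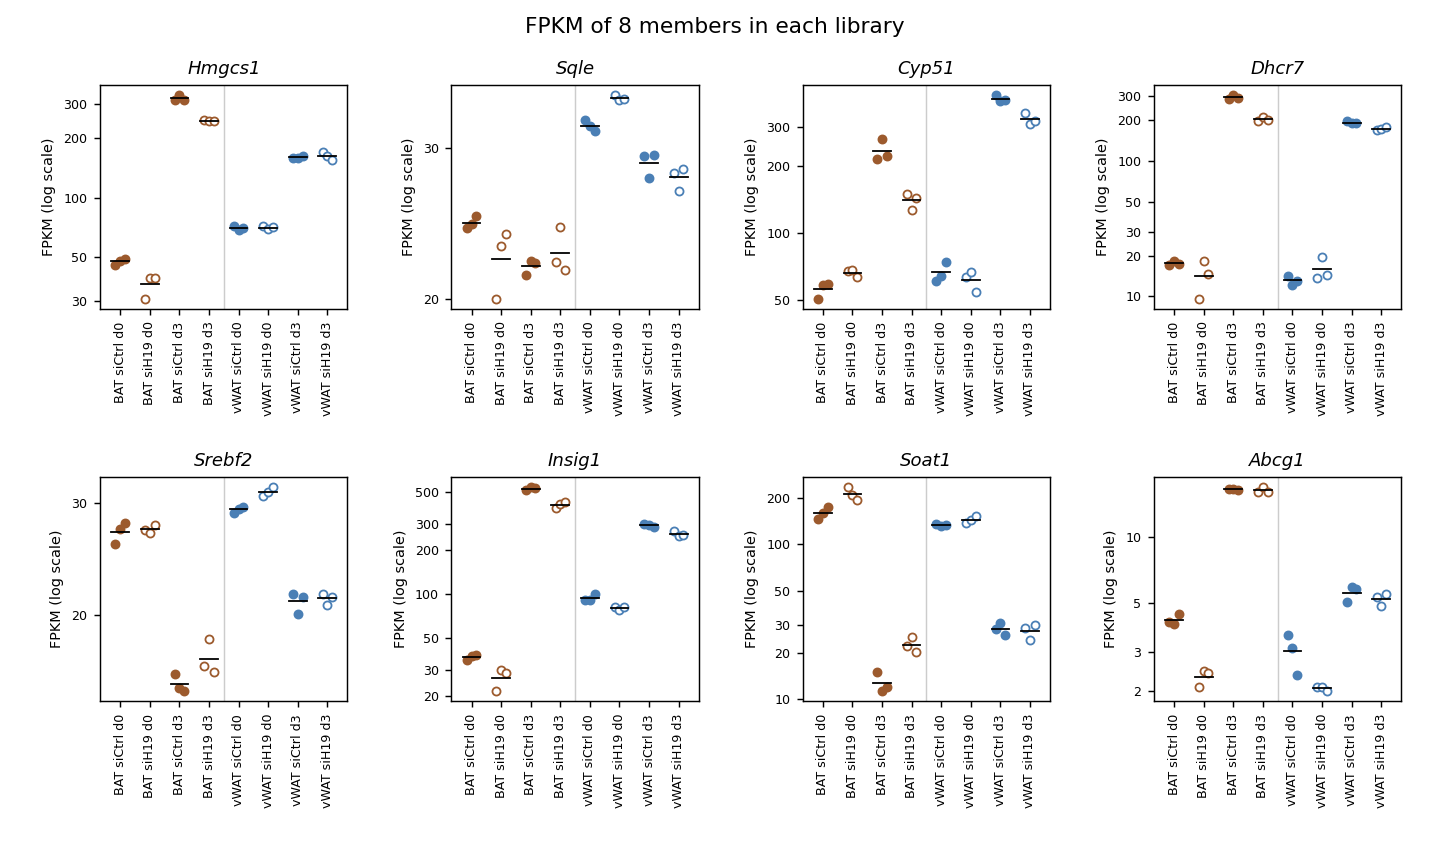
FPKM on a logarithmic axis in each of the 24 libraries for 8 members, filled points for siCtrl and open points for siH19, brown for BAT and blue for vWAT, with a line at the mean of the 3 libraries. *Hmgcs1*, *Cyp51*, *Dhcr7* and *Insig1* stand higher at d3 than at d0 in all 4 pairs of groups, *Soat1* stands lower, and *Sqle* spans a narrow range.

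Summed over the 18 enzymes, FPKM rose from 455.2 ± 9.32 to 1573 ± 59.5 (SD, n = 3) in BAT siCtrl cells and from 535.9 ± 1.86 to 1607 ± 33.7 in vWAT siCtrl cells. The sum was lower in BAT than in vWAT at d0 and overlapped at d3. With siH19 it rose from 440.6 ± 11.4 to 1199 ± 17.4 in BAT and from 534.4 ± 5.59 to 1460 ± 56.2 in vWAT cells. The lowest BAT siCtrl library at d3 (1526) was above the highest siH19 library (1210).

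**Figure D3:**
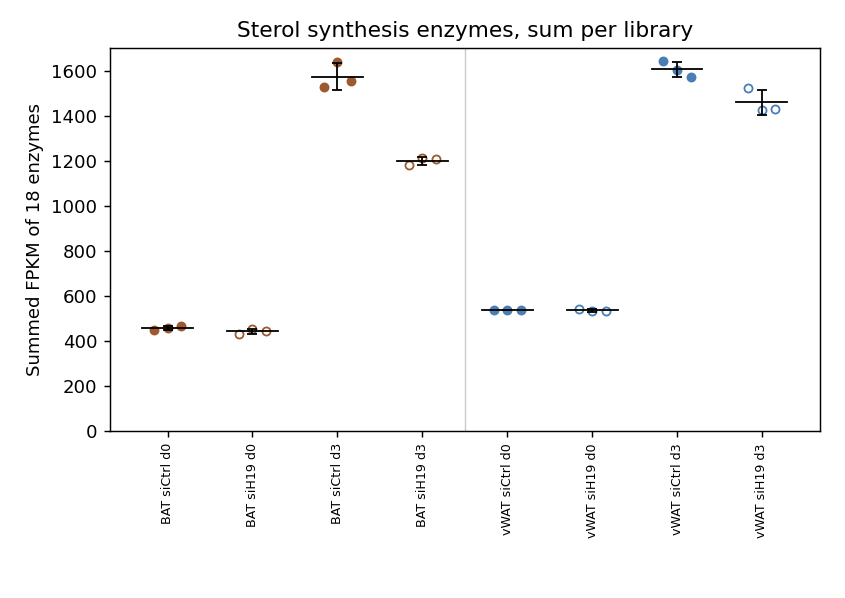
Summed FPKM of 18 enzymes of the mevalonate and sterol pathways (vertical axis, from 0) in each library, filled for siCtrl and open for siH19, with the mean and SD of 3 libraries in black. At d3 the BAT siH19 libraries, at 1179 to 1210, lie below the BAT siCtrl libraries, at 1526 to 1640, and the vWAT siH19 libraries, at 1425 to 1525, lie below the vWAT siCtrl libraries, at 1574 to 1641.

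The genes that control the pathway moved in both directions. *Srebf2* itself fell, from 25.9, 27.2 and 27.9 to 16.2, 15.4 and 15.2 FPKM in BAT siCtrl cells (log2 -0.75 ± 0.055, adjusted p = 1.9e-05, limma) and from 28.9, 29.3 and 29.6 to 21.6, 20.1 and 21.4 in vWAT siCtrl cells (-0.46 ± 0.049). *Insig1*, a retention factor of SCAP and itself a target of SREBP, reached the highest FPKM of all members at d3 in BAT siCtrl cells. Its values went from 35.2, 37.7 and 38.3 to 513, 537 and 527 FPKM there and from 91.3, 90.1 and 99.98 to 299, 296 and 287 in vWAT cells. The rise was 14.2-fold in BAT and 3.13-fold in vWAT, and as for *Hmgcs1* the order of the depots turned over between the days. *Insig2*, the related retention factor, went from 51.1, 52.5 and 48.8 to 109.7, 108 and 102 FPKM in BAT cells and was called, and its vWAT values of 87.1, 76.5 and 78.5 at d0 and 108, 87.8 and 74.5 at d3 overlapped. *Scap* stood at 25.2, 23.6 and 25.01 and 24.9, 19.4 and 24.6 FPKM in BAT, and fell from 38.6, 34.5 and 34.3 to 23.9, 27.1 and 18.9 in vWAT cells. An annotated transcript on the opposite strand shares 13.2% of its exonic bases.

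Of the genes that store and move cholesterol, *Soat1*, which esterifies it, fell most. In BAT siCtrl cells *Soat1* went from 145, 161 and 175 to 14.9, 11.3 and 12.03 FPKM, a log2 fold change of -3.56 ± 0.11 (adjusted p = 3.7e-07, limma), and in vWAT cells from 136, 131 and 134 to 28.3, 30.9 and 26.1 (-2.19 ± 0.064). The efflux pump gene *Abca1* rose from 3.94, 3.68 and 4.48 to 24.3, 19.1 and 17.2 FPKM in BAT and from 9.90, 11.6 and 11.1 to 27.4, 22.2 and 29.3 in vWAT cells. *Abcg1*, the second efflux pump, went from 4.13, 4.02 and 4.45 to 16.6, 16.7 and 16.4 FPKM in BAT and from 3.58, 3.13 and 2.37 to 5.08, 5.92 and 5.80 in vWAT cells. Both pumps thus rose in both depots with all d3 libraries above all d0 libraries. *Npc1*, which exports cholesterol from lysosomes, stood at 7.46, 7.12 and 6.70 and 7.44, 6.56 and 6.13 FPKM in BAT, and at 9.49, 10.2 and 10.6 and 9.10, 7.59 and 8.03 in vWAT cells, and was called in neither. Its soluble partner *Npc2*, the member with the highest FPKM at d0 in siCtrl cells of both depots, changed by 0.24 ± 0.038 and 0.16 ± 0.044, also below the minimum. *Stard4*, a carrier of sterol between membranes, stood at 7.88, 11.02 and 10.7 and 7.18, 10.2 and 8.42 FPKM in BAT and fell from 14.8, 13.6 and 14.1 to 8.71, 10.3 and 10.8 in vWAT cells.

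Other cell states changed over the same days. In BAT siCtrl cells the 7 precursor and stromal markers all fell, their sum going from between 3634 and 3945 to between 725.6 and 841 FPKM, and 5 of 8 proliferation genes fell (178.3 to 180.7 against 111.1 to 121.7 FPKM). In vWAT siCtrl cells 5 of 7 precursor markers fell and 1 rose (2274 to 2365 against 1432 to 1534 FPKM), and 1 of 8 proliferation genes fell. Of the macrophage markers tested, 4 of 7 fell and 1 rose in BAT (sum 136.1 to 169.2 against 136.5 to 166.4 FPKM) and 4 of 8 fell and 3 rose in vWAT cells (307.7 to 341.6 against 520.9 to 566.7 FPKM). None of these markers was at 0 in all libraries of a group. Endothelial markers fell in 3 of 4 and 2 of 4 tested cases. Muscle lineage markers fell in 3 of 4 tested in BAT (59.4 to 97.6 against 36.9 to 50.05 FPKM) and 2 of 2 in vWAT (31.2 to 40.4 against 10.1 to 14.8 FPKM), and mesothelial markers in 1 of 1 in BAT (5.14 to 5.92 against 1.36 to 3.44 FPKM) and 4 of 5 in vWAT (113.9 to 132.4 against 39.1 to 45.4 FPKM). Their part in the changes of the sterol genes was not tested.

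In siH19 cells the same comparison of d3 with d0 called 15 members higher and 2 lower in BAT (median 0.62 against -0.0087 for all genes, 30.8% and 29.8% of which rose and fell) and 16 higher and 3 lower in vWAT cells (median 1.01 against 0.026; 28.2% and 24.5%). Among those with the largest change were *Insig1* (3.90 ± 0.12 in BAT, 1.68 ± 0.047 in vWAT), *Dhcr7* (3.79 ± 0.20 and 3.37 ± 0.13), *Acat2* (3.33 ± 0.058 and 2.81 ± 0.076) and *Soat1* (-3.18 ± 0.10 and -2.34 ± 0.089). *Tm7sf2* and *Hsd17b7* were called in BAT siCtrl but not in BAT siH19 cells, with 0.40 ± 0.25 and 0.30 ± 0.066. These comparisons share no library with those of siCtrl cells, and only the tests of the difference below bear on whether the rises differed.

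With siH19, several enzymes of sterol synthesis were lower in BAT cells at d3 than with siCtrl. Of the 28 members, 5 were lower and 1 higher, with a median log2 fold change of -0.10 against 0.051 for all genes, of which 2.18% were lower and 6.39% higher. *Cyp51* fell from 216, 263 and 221 FPKM in siCtrl to 149.7, 126 and 143 in siH19 libraries, a log2 fold change of -0.73 ± 0.096 (SE; adjusted p = 0.0055, limma). *Lss* fell from 101, 99.8 and 95.7 to 62.5, 77.5 and 57.3 FPKM (-0.59 ± 0.11, adjusted p = 0.014, limma). *Dhcr7* fell from 285, 307 and 291 to 195, 212 and 199.8 FPKM (-0.54 ± 0.048, adjusted p = 0.0023, limma). In each of these genes no siH19 library reached the lowest siCtrl library. *Pmvk* fell from 85.7, 85.2 and 88.9 to 56.4, 65.3 and 63.8 FPKM (-0.48 ± 0.064), and *Nsdhl* from 65.3, 68.1 and 66.8 to 48.8, 50.9 and 53.6 (-0.38 ± 0.050). Of these 5, 4 are enzymes after squalene, and *Pmvk* acts in the mevalonate pathway.

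*Nsdhl* was the member just inside the 1.3-fold minimum (0.379 on the log2 scale). Just outside it, with adjusted p under 0.05, were *Hmgcs1*, at 311, 333 and 311 FPKM in siCtrl and 247, 245 and 244 in siH19 libraries (-0.37 ± 0.039, adjusted p = 0.0031, limma), *Insig1*, at 513, 537 and 527 and 386, 413 and 424 FPKM (-0.37 ± 0.045), and *Acat2*, at 79.9, 82.8 and 82.3 and 61.9, 61.9 and 65.95 FPKM (-0.36 ± 0.044). *Sqle* stood at 21.3, 22.1 and 22.1 and 22.1, 24.3 and 21.6 FPKM with overlapping groups, and *Srebf2* at 16.2, 15.4 and 15.2 and 16.6, 18.4 and 16.3 FPKM (0.12 ± 0.068, not called).

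The member that rose was *Soat1*, from 14.9, 11.3 and 12.03 FPKM in siCtrl to 22.3, 25.2 and 20.2 in siH19 libraries (0.78 ± 0.12, adjusted p = 0.0094, limma), without overlap. *Abca1* (24.3, 19.1 and 17.2 against 18.7, 19.7 and 17.6 FPKM), *Abcg1* (16.6, 16.7 and 16.4 against 16.2, 16.9 and 16.1) and *Npc1* (7.44, 6.56 and 6.13 against 6.47, 6.600 and 5.88) overlapped between the groups and were not called. The siH19 values of *Soat1* at d3 lay between the siCtrl values of d3 and those of d0, and both comparisons share the BAT siCtrl libraries of d3.

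Without BAT siCtrl replicate 2 the call of *Lss* was lost, and the call of *Nsdhl* was lost without that library or without BAT siH19 replicate 1 or 2. Scaling the libraries by the median ratio of their genes called 8 members lower and 1 higher, and moved the share of higher among all called genes from 74.6% to 60.5%.

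Markers of differentiation and of other cells moved in the same comparison. Of 7 brown adipocyte markers 4 were lower with siH19 (sum 518.4 to 569.6 against 312.1 to 366.7 FPKM), and limma called 0 of the 7 adipocyte markers, of which 6 were lower at an unadjusted p under 0.05 (37580 to 39280 against 34250 to 36570 FPKM). At that unadjusted p, 31.3% of all genes differed in either direction. Of 6 precursor markers tested 4 were higher (725.6 to 841 against 1085 to 1206 FPKM). Of 5 macrophage markers tested 3 were lower (136.5 to 166.4 against 83.8 to 95.5 FPKM), and *Cdk1*, 1 of 8 proliferation genes, and *Des*, 1 of 4 muscle markers tested, were higher. No macrophage, precursor or brown adipocyte marker was at 0 in all libraries of either group. The part of these shifts in the values of *Cyp51*, *Lss*, *Dhcr7*, *Pmvk*, *Nsdhl* and *Soat1* was not tested.

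In vWAT cells at d3 limma called 0 of the 28 members, at a background of 0.00764% higher and 0.0229% lower, and 7 were lower and 0 higher at an unadjusted p under 0.05, as were 10.04% of all genes in either direction. The median was -0.037 against -0.0052 for all genes. The member with the most negative value was *Cyp51*, at 418, 392 and 394 FPKM in siCtrl and 344, 308 and 318 in siH19 libraries, a log2 fold change of -0.31 ± 0.051 (adjusted p = 0.24, limma) without overlap. *Soat1* stood at 28.3, 30.9 and 26.1 and 28.8, 24.1 and 30.2 FPKM, *Hmgcs1* at 159, 159 and 162 and 170.1, 162 and 155 FPKM, and *Insig1* at 299, 296 and 287 and 270.1, 250.1 and 252 FPKM. The first 2 overlapped between siRNAs and *Insig1* did not.

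**Figure D4:**
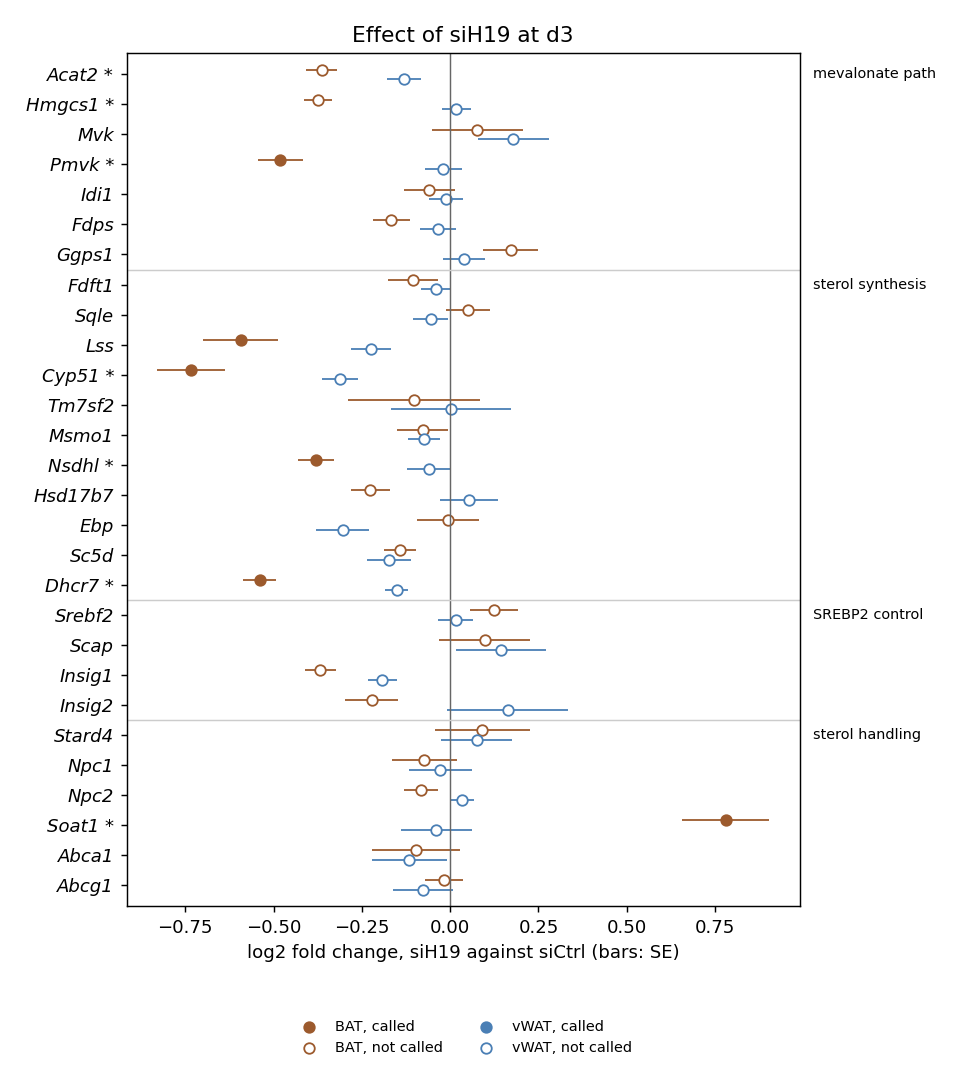
Log2 fold change of siH19 against siCtrl at d3 (horizontal axis, bars are SE, 3 libraries against 3) for the 28 members in pathway order, brown for BAT and blue for vWAT, filled where called. An asterisk marks the 7 members whose siRNA effect differed between the depots by the interaction test. *Soat1* lies to the right of 0 in BAT, at 0.78, and *Cyp51* furthest to the left, at -0.73.

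The difference between the depots was tested itself, as the interaction of depot and siRNA over the 12 libraries at d3, with no minimum change. It called 7 members, 6 with a more negative siH19 effect in BAT and *Soat1* with a more positive one, where 3.52% and 7.02% of all genes were called in these directions. For *Dhcr7* the effects were -0.54 in BAT and -0.15 in vWAT (difference -0.39 ± 0.056, adjusted p = 0.0028, limma). For *Hmgcs1* they were -0.37 and 0.018 (difference -0.39 ± 0.055, adjusted p = 0.0027, limma). *Pmvk* differed by -0.46 ± 0.084, *Nsdhl* by -0.32 ± 0.080, *Acat2* by -0.23 ± 0.062 and *Cyp51* by -0.42 ± 0.12, and *Soat1* by 0.82 ± 0.17. *Lss* and *Insig1* were not called in this test (differences -0.37 ± 0.13 and -0.18 ± 0.060). The calls of *Acat2*, *Cyp51* and *Nsdhl* were lost when genes of low level were also tested, and 4 members were called without BAT siCtrl replicate 2 or 3 or without vWAT siCtrl replicate 2 or 3. In the same test 5 of 7 adipocyte, 5 of 7 brown adipocyte and 5 of 7 macrophage markers had a more negative effect in BAT and 4 of 7 precursor markers a more positive one, and their part was not tested. The same median-ratio scaling moved the share of positive differences among all called genes from 66.6% to 45.6%.

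At d0, 1 member was called with siH19 in BAT cells, lower, against a background of 0.617% higher and 1.32% lower, with a median of -0.072 against -0.027 for all genes. At an unadjusted p under 0.05, 2 members were higher and 7 lower, as were 19.6% of all genes in either direction. The called member was *Abcg1*, at 4.13, 4.02 and 4.45 FPKM in siCtrl and 2.08, 2.46 and 2.40 in siH19 libraries, a log2 fold change of -0.65 ± 0.088 (adjusted p = 0.026, limma). The groups did not overlap, but the call was lost when any of the 6 libraries was left out (log2 fold change -0.68 to -0.60). *Hmgcs1*, at 45.96, 47.9 and 49.2 against 30.9, 39.3 and 39.2 FPKM (adjusted p = 0.093), and *Insig1*, at 35.2, 37.7 and 38.3 against 21.5, 29.9 and 28.6 (adjusted p = 0.097, limma), did not overlap either and were not called. *Soat1* had values of 145, 161 and 175 against 234, 209 and 192 FPKM (adjusted p = 0.076, limma), all siH19 libraries above all siCtrl libraries, and was not called. The member closest to a call was *Insig2*, at 51.1, 52.5 and 48.8 against 37.7, 40.96 and 43.25 FPKM without overlap (-0.32 ± 0.062, adjusted p = 0.052, limma). Of the 7 adipocyte markers 5 were lower in the same comparison (sum 3135 to 3408 against 1583 to 2115 FPKM) and 2 of 7 macrophage markers tested were lower (136.1 to 169.2 against 103.3 to 103.8 FPKM), and their part was not tested.

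In vWAT cells at d0 limma called 0 members (background 0.329% higher and 1.2% lower), and 2 were higher and 5 lower at an unadjusted p under 0.05, as were 17.6% of all genes in either direction. The median was -0.063 against -0.033 for all genes, and median-ratio scaling moved the share of higher among all called genes from 21.5% to 32.3%. Of the 7 adipocyte markers 5 were lower there too (4087 to 4095 against 2412 to 2721 FPKM). *Abcg1* stood at 3.58, 3.13 and 2.37 FPKM in siCtrl and 2.08, 2.08 and 1.99 in siH19 libraries, without overlap (-0.39 ± 0.13, adjusted p = 0.19, limma).

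Whether the siH19 effect in BAT cells differed between the days was tested over the 12 BAT libraries. The knockdown itself was weaker at d3, with *H19* effects of -4.63 at d0 and -2.64 at d3 (difference 1.99 ± 0.29, adjusted p = 0.0028, limma). The part of this in the differences of the members was not tested. Of the members, 4 were called, 3 negative and 1 positive, at a background of 1.27% negative and 7.79% positive. *Cyp51* stood at 67.1, 67.8 and 63.5 FPKM with siH19 at d0 against 50.5, 57.9 and 58.9 with siCtrl, which was not called (adjusted p = 0.12, limma), and it was lower at d3, so that its effects of 0.24 and -0.73 differed by -0.98 ± 0.13 (adjusted p = 0.0015, limma). The effect on *Abcg1* went from -0.65 at d0 to -0.016 at d3 (difference 0.63 ± 0.087, adjusted p = 0.002, limma). *Nsdhl* (-0.33 ± 0.076) and *Hsd17b7* (-0.40 ± 0.092) had negative differences, and 2 members were called without BAT siCtrl d3 replicate 2 or without BAT siH19 d3 replicate 1. The siH19 effect was more positive at d3 for 5 of 7 adipocyte and 4 of 7 precursor markers and more negative for 3 of 7 brown adipocyte markers, and their part was not tested. Median-ratio scaling moved the share of positive differences among all called genes from 86.0% to 61.1%.

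The depots were compared in siCtrl cells. At d0, 2 members were higher and 11 lower in BAT than in vWAT libraries, against 10.2% and 21.0% of all genes, with a median log2 difference of -0.34 against -0.13. *Insig1* (35.2, 37.7 and 38.3 FPKM in BAT, 91.3, 90.1 and 99.98 in vWAT; -1.32 ± 0.057) and *Abca1* (3.94, 3.68 and 4.48 and 9.90, 11.6 and 11.1; -1.24 ± 0.093) differed most. *Fdft1*, *Insig2*, *Hmgcs1*, *Tm7sf2*, *Scap* and *Stard4*, whose values are given above, followed with -0.81, -0.66, -0.55, -0.54, -0.52 and -0.49, and *Pmvk*, *Npc1* and *Npc2* were also lower. The 2 higher in BAT were *Dhcr7* (0.39) and *Abcg1* (0.38), both just past the minimum. Leaving out 1 library at a time ended the call of *Abcg1* in 5 of 6 cases, and those of *Pmvk*, *Tm7sf2*, *Npc2*, *Stard4* and *Dhcr7* in some. Scaling by the median ratio raised the median gene by 0.11 and left 4 members higher and 6 lower, with 48.0% in place of 32.8% of all called genes higher in BAT, and 8 members were called without vWAT siCtrl d0 replicate 2.

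At d3, 6 members were higher and 10 lower in BAT, against 16.5% and 32.1% of all genes (median -0.29 against -0.16). Those higher in BAT were *Abcg1* (1.42 ± 0.073, adjusted p = 7.4e-06, limma), *Hmgcs1* (0.99 ± 0.038), *Insig1* (0.84 ± 0.033), *Dhcr7* (0.62), *Hsd17b7* (0.56) and *Acat2* (0.51). Those lower included *Ebp* (-1.21 ± 0.072), *Soat1* (-1.10 ± 0.11), *Tm7sf2* (-1.08 ± 0.16), *Cyp51* (-0.79 ± 0.079) and *Sc5d* (-0.67 ± 0.045), with *Fdft1*, *Ggps1*, *Mvk*, *Srebf2* and *Sqle* between -0.62 and -0.39. Scaling raised the median gene by 0.12 and gave 7 higher and 7 lower members, with 45.3% in place of 33.9% of all called genes higher in BAT. The macrophage markers were lower in BAT at both days, 7 of 8 tested at d0 (sum 136.1 to 169.2 against 307.7 to 341.6 FPKM) and 7 of 7 tested at d3 (136.5 to 166.4 against 520.9 to 566.7 FPKM), as were the mesothelial markers, 5 of 5 and 4 of 5 (5.14 to 5.92 against 113.9 to 132.4, and 1.36 to 3.44 against 39.1 to 45.4 FPKM), of which *Upk3b* was listed at 0 in BAT siCtrl cells at d0. Of 4 muscle lineage markers tested 3 were higher and 1 lower in BAT at d0 (59.4 to 97.6 against 31.2 to 40.4 FPKM) and 4 were higher at d3 (36.9 to 50.05 against 10.1 to 14.8 FPKM), with *Myf5* and *Myog* listed at 0 in vWAT siCtrl cells at both days. At d3 all 7 adipocyte markers (37580 to 39280 against 19220 to 20210 FPKM) and all 7 brown adipocyte markers (518.4 to 569.6 against 124.7 to 139.6 FPKM) were higher in BAT, 5 of 7 precursor markers were lower and 1 higher (725.6 to 841 against 1432 to 1534 FPKM), and all 8 proliferation genes were lower (111.1 to 121.7 against 179.2 to 199.1 FPKM). Their part in the depot differences of the members was not tested, and the depots also differed in medium and depth.

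The interaction of depot and day in siCtrl cells called 20 of the 28, 12 with a positive difference (d3 against d0 more positive in BAT than in vWAT) and 8 with a negative one (background 24.9% and 28.1%). Of these calls, *Dhcr7* and *Scap* were lost without 6 of the 12 libraries in turn. The rises of *Insig1* (2.15 ± 0.065, adjusted p = 2.7e-09, limma), *Hmgcs1* (1.54 ± 0.054), *Abcg1* (1.04 ± 0.15), *Abca1* (0.86 ± 0.19) and *Acat2* (0.82 ± 0.054) were larger in BAT, and *Hsd17b7* (0.93 ± 0.10) and *Insig2* (0.91 ± 0.15) rose in BAT and were not called in vWAT. The rises of *Cyp51* (-0.54 ± 0.13) and *Sc5d* (-0.45 ± 0.13) were smaller in BAT, *Ebp* (-1.44 ± 0.11) and *Idi1* (-0.43 ± 0.083) rose in vWAT and were not called in BAT, and *Soat1* fell further in BAT (-1.36 ± 0.14). In the same test all 7 adipocyte and 6 of 7 brown adipocyte markers had a positive difference and 6 of 7 precursor and 6 of 8 macrophage markers a negative one, and their part was not tested. *Insig1* and *Hmgcs1*, 2 of the 3 genes with the 8-letter match printed above, had the largest positive differences among the members. *Acat2*, the other, had 0.82, below *Hsd17b7*, *Insig2* and *Abca1*, whose windows lack this match, and *Abcg1*, which had no window. This is a description of 3 genes, and no link between match and change was tested.

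Other genes of sterol metabolism, taken from lists that do not contain the members, moved in both directions. Of 17 further genes of synthesis and SREBP processing, 4 rose and 8 fell from d0 to d3 in BAT siCtrl cells (median -0.29) and 4 rose and 6 fell in vWAT siCtrl cells (median -0.34). Over all genes tested, 29.9% rose and 35.3% fell in BAT (median -0.099), and 26.3% rose and 23.9% fell in vWAT siCtrl cells (median 0.011). The same shares are the background of the other lists below. *Srebf1*, whose products drive fatty acid synthesis, rose in both (2.60 and 1.67), as did the mitochondrial thiolase gene *Acat1* (2.26 and 0.93), and *Nfya*, a subunit of the CCAAT-binding factor NF-Y, fell (-1.42 and -1.01).

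In the siH19 comparisons, *Srebf1* was the gene of that list called in BAT at d3 (-0.43) and in vWAT at d0 (-0.50), both lower. Of all genes, 6.39% were higher and 2.18% lower with siH19 in BAT at d3. At d0 the shares were 0.617% and 1.32% in BAT and 0.329% and 1.2% in vWAT cells. Of 10 liver X receptor and oxysterol genes 4 rose and 4 fell in BAT and 6 rose and 1 fell in vWAT siCtrl cells over the days. The receptor gene *Nr1h3* rose (log2 3.82 and 2.09) and the cholesterol hydroxylase gene *Ch25h* fell (-5.14 and -4.49). With siH19, *Ch25h* was the 1 gene called of 8 tested in BAT at d3 (0.82) and *Rxra*, a partner of these receptors, the 1 called of 9 tested in BAT at d0 (-0.49). Of the uptake and sterol transport genes tested, 9 of 18 rose and 6 fell in BAT, and 7 of 19 rose and 6 fell in vWAT siCtrl cells, with the sterol transfer gene *Gramd1b* (3.83 and 1.90) changing most in both. With siH19, 1 of 18 was lower in BAT at d3 (*Stard5*, -0.47), 1 of 19 was lower in BAT at d0 and 2 of 19 were lower in vWAT at d0. Of 14 genes of the non-sterol branch, 9 rose and none fell in BAT (median 0.72), and 7 rose and 1 fell in vWAT cells (median 0.36), led by the ubiquinone gene *Coq5* (3.23 and 1.83). With siH19, limma called 0 of the 14 in BAT at d3. There 1 was higher and 6 lower at an unadjusted p under 0.05, as were 31.3% of all genes in either direction.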

How the data were processed

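Poly-A RNA of 24 cultures (8 groups of 3) was sequenced. The deposited table holds FPKM per Ensembl gene, a unit taken from the study's methods and the values because the table does not name it. The authors mapped reads to GRCm38 with TopHat2 (2.0.10) and quantified them with Cufflinks (2.2.1 in the submitters' processing notes, another version in the methods). Groups came from the sample titles, and 0 columns were left out. Of 49452 genes 20695 carried a symbol, and 28503 were named through gene identifiers. FPKM were used as log2(FPKM + 1), and genes of at least 1 FPKM in at least 3 of the libraries compared were tested with limma (3.58.1, intensity trend, R 4.3.3), each comparison on its own libraries, with Benjamini-Hochberg adjustment over all genes tested. Without counts the depth is known only relative between libraries, and low values are imprecise.

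In a test on simulated data for siH19 against siCtrl in BAT at d3 (12221 genes), 83% of changes of log2 1 and 97% of log2 2 were recovered, with 6 false calls. All siH19 changes of the members were smaller than log2 1, and recovery at such sizes was not simulated. The members are set by symbol alone, but they, the lists and the tests were chosen with earlier results of these data known. Values per library are given for *Hmgcs1*, *Sqle*, *Insig1*, *Srebf2*, *Abca1*, *Abcg1* and *Npc1*, and for up to 8 called members with the largest change in a comparison. Those given for other members were added after their values were seen. Alternatives were another pseudocount (0.1), no filter, median-ratio scaling, 1 fit over all libraries, the replicate number as a block, no minimum fold change, and leaving out each library.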

Additional observations from a re-analysis of the deposited data

Results flagged for a closer look

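The results below were picked out because the effect of one factor on a member differed between 2 groups by the interaction test of limma (adjusted p under 0.05). Values are differences of log2 fold changes on the log2(FPKM + 1) scale, and no explanation was tested.

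For the effect of siH19 at d3, BAT minus vWAT, the differences were -0.23 (*Acat2*), -0.39 (*Hmgcs1*), -0.46 (*Pmvk*), -0.42 (*Cyp51*), -0.32 (*Nsdhl*), -0.39 (*Dhcr7*) and 0.82 (*Soat1*). For the effect of siH19 in BAT, d3 minus d0, they were -0.98 (*Cyp51*), -0.33 (*Nsdhl*), -0.40 (*Hsd17b7*) and 0.63 (*Abcg1*).

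For the change from d0 to d3 in siCtrl cells, BAT minus vWAT, the mevalonate enzymes gave 0.82 (*Acat2*), 1.54 (*Hmgcs1*), 0.47 (*Pmvk*), -0.43 (*Idi1*), -0.25 (*Fdps*) and -0.32 (*Ggps1*). The sterol enzymes gave 0.19 (*Fdft1*), -0.54 (*Cyp51*), 0.28 (*Nsdhl*), 0.93 (*Hsd17b7*), -1.44 (*Ebp*), -0.45 (*Sc5d*) and 0.22 (*Dhcr7*). The control and handling genes gave -0.29 (*Srebf2*), 0.51 (*Scap*), 2.15 (*Insig1*), 0.91 (*Insig2*), -1.36 (*Soat1*), 0.86 (*Abca1*) and 1.04 (*Abcg1*). In this last comparison the depots differ in medium, and medium and depot cannot be told apart.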

How the results depend on the processing

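No called member changed sign under the alternatives run, nor did the members' median in any siRNA, day or depot comparison, and the cause of each change below was not tested. Among the calls of single members, 140 held and 2 were lost in the fit over all 24 libraries, 133 and 9 with median-ratio scaling, 135 and 7 with no filter, 140 and 2 with pseudocount 0.1, 135 and 7 with the replicate block, and 961 and 77 over all settings that left out 1 library. Every call from d0 to d3 in siCtrl cells was among those that held under these settings.

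For siH19 in BAT at d0 the count of members called was 4 in the fit over all libraries, 0 with no filter and 0 to 0 when a library was left out. In BAT at d3 it was 10 with no minimum fold change, and the median of the members was -0.15 with scaling. In vWAT at d0 the fit over all libraries called 1 member, the median was -0.029 with scaling, and leaving out a library gave -0.065 to -0.0089. The median from d0 to d3 was 0.82 with scaling in BAT siCtrl cells (0.67 to 0.82 leaving out a library) and 1.03 with pseudocount 0.1 in vWAT siCtrl cells (0.85 to 0.96). Between depots at d0, 22 members were called with no minimum fold change, the median was -0.22 with scaling, and 8 to 13 members were called leaving out a library. At d3 the median was -0.30 with pseudocount 0.1, -0.16 with scaling, and -0.31 to -0.24 leaving out a library. The depot and siRNA interaction called 4 members with no filter and 4 to 7 leaving out a library, and the day and siRNA interaction 2 to 5. With scaling, the members' median in the day and siRNA interaction went from 0.0059 to -0.10, and 7 members were higher and 7 lower in BAT than in vWAT at d3, in place of 6 and 10.

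Replicate numbers did not pair the libraries. Deviations of libraries with the same number correlated between -0.14 and 0.088, and no source ties a number to an animal or day. With the replicate block 0 members were called for siH19 in BAT at d0 and 4 in the depot and siRNA interaction.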
